A study of Mus musculus with 8 samples.

Results

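The genes of fatty acid synthesis and desaturation Acly, Acaca, Fasn, Elovl6, Elovl5, Scd1, Scd2, Fads1 and Fads2 were followed in mouse oocytes. All probe sets whose only gene symbol in the platform annotation was 1 of these 9 genes were taken, which gave 24 of the 45101 probe sets on the array. Total RNA came from germinal vesicle (GV) oocytes, immature oocytes that have not yet broken down their nucleus, and 15 µg of biotinylated cRNA was hybridised to each of 8 Affymetrix arrays. In a series whose title concerns transcript stability in fully grown oocytes, the groups were 4 samples of GV oocytes kept for 48 h in milrinone, an inhibitor of cAMP phosphodiesterase that holds oocytes at the GV stage, and 4 samples of untreated GV oocytes. The labels used here give no strain, age or number of animals, and no oocytes cultured without milrinone, so drug, culture and elapsed time cannot be told apart. Nothing states that replicates came from separate animals, so their spread may be technical. The genes were selected on their known roles with the measured differences of this comparison, milrinone against untreated, already in view, and their differences are therefore a description and not a test.

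Cells build fatty acids from citrate. Acly splits citrate into acetyl-CoA, Acaca carboxylates acetyl-CoA to malonyl-CoA, and Fasn joins these units into palmitate. Elovl6 lengthens palmitate to stearate, and the stearoyl-CoA desaturases Scd1 and Scd2 put a double bond into saturated chains to make monounsaturated fatty acids such as oleate. Fads2, Elovl5 and Fads1 act on the essential fatty acids instead, desaturating, lengthening and again desaturating them into long polyunsaturated fatty acids such as arachidonate. In many tissues these genes are activated by the transcription factor encoded by Srebf1. Oocytes keep stores of lipid and oxidise fatty acids during maturation, and they exchange small molecules with the granulosa and cumulus cells around them.

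Start-site sequences are shown for a pair of genes that had values on untreated arrays alone, Elovl6 and Fads2, beside a gene with values on all 8 arrays and little difference, Elovl5, and the synthase gene Fasn. Each runs from 250 bases before to 50 bases after the RefSeq start in GRCm38, 5′ to 3′. Capitals mark the motifs CCAAT and CACGTG on either strand, CCAAT being the CCAAT box and CACGTG the E-box; TCACNCCAC, a sterol response element, was searched too.
Elovl6, chr3:129532136-129532435, plus strand: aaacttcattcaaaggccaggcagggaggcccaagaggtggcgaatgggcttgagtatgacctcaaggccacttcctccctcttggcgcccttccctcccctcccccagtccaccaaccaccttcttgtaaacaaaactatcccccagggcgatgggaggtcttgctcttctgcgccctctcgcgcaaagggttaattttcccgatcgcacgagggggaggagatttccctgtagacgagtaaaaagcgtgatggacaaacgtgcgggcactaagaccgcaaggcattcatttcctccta
Fads2, chr19:10101454-10101753, minus strand: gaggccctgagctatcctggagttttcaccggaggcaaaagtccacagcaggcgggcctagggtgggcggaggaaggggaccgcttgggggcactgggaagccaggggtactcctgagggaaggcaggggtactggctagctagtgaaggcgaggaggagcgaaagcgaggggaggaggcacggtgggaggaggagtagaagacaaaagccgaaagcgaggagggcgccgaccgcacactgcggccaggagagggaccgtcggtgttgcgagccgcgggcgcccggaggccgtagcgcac
Elovl5, chr9:77917115-77917414, plus strand: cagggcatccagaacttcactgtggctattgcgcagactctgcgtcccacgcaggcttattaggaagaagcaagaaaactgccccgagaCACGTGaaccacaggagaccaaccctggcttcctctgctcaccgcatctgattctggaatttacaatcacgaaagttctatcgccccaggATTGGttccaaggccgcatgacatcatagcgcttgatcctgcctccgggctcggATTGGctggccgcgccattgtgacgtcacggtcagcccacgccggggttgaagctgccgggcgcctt
Fasn, chr11:120824498-120824797, minus strand: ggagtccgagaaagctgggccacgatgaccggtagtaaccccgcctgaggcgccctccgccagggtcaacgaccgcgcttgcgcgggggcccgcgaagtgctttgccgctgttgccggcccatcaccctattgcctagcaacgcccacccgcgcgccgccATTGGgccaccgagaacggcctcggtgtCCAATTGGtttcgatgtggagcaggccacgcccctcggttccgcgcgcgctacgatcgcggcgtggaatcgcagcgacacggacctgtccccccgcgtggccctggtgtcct
Sequences of this kind were found for 6 of the 9 genes, the others being Scd1, Scd2 and Fads1. The start used for Acaca lies 65803 bases inside the RefSeq span of its gene, so that entry, counted here and not printed, is an internal start, and that for Fasn lies 619 bases inside; the other 4 lie at the outer start. CCAAT was in 3 of the 6, against 37.4% of all 32851 promoters in the table, CACGTG was in 1 of the 6, against 7.15%, and TCACNCCAC was in 0 of the 6, against 1.24%. The sequences of Elovl6 and Fads2 held none of these motifs. That of Elovl5 held 1 CACGTG and 2 CCAAT, and that of Fasn held 3 CCAAT, of which a pair on opposite strands share bases. A match describes the letters and is not a binding site.

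A probe set is called listed where an array gives it a value, and the rule by which the authors left the other cells empty is not given in the sources used here. Values as low as 4.84 were listed, so an empty cell sets no upper limit, and no fold is given against an empty group. Milrinone arrays listed 18605 to 19448 probe sets and untreated arrays 18888 to 23269, the most on untreated 1. Untreated 1 also stood apart over the 14391 probe sets with 8 values, with a median correlation of 0.930 with the others, against 0.966 to 0.980 for the other 7 arrays. The comparisons of the groups below are therefore given with and without untreated 1.

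The samples carried oocyte markers throughout. All 13 probe sets of 11 oocyte marker genes were listed on every array, and their summed intensity was 137847 to 147427 on milrinone arrays and 135085 to 156869 on untreated arrays. Markers of granulosa, cumulus and theca cells, 38 probe sets of 18 genes, were listed 11 to 18 at a time on milrinone arrays and 20 to 28 at a time on untreated arrays. Their summed intensity was 2861 to 3836 on milrinone arrays and 19775 to 85902 on untreated arrays, with 85902 on untreated 1 and at most 22859 on the other untreated arrays. The granulosa gap junction gene Gja1 had 171, 426, 155 and 25.8 on milrinone arrays, against 9322, 3574, 4109 and 3430 on untreated arrays, while Amh, another granulosa marker, was empty on all 8. The markers did not share 1 order over the untreated arrays. Grem1, a BMP antagonist of cumulus cells, had 79.8, 96.1 and 54.2 on milrinone 1 to 3 and was empty on milrinone 4, against 2639, 1106, 1697 and 5704 on untreated arrays, the highest on untreated 4, and the 2 probe sets of Ptgs2 gave 3 values on milrinone and 1 on untreated arrays. Markers of blood, stromal and endothelial cells, 18 probe sets of 11 genes, summed to 569 to 734 on milrinone arrays and 1434 to 10027 on untreated arrays, with at most 2870 outside untreated 1. Of these genes, Kdr, Tek and Cd68 had values on all 8 arrays, and Pecam1 was empty on all 8. Col1a1, Col1a2, Dcn, Cdh5 and Lyz2 had values on untreated arrays alone. Col3a1 had 2 values on milrinone and 6 on untreated arrays, and Ptprc had 1 and 4. Of 8 adipocyte probe sets, 0 were listed on any milrinone array and 2 on untreated 1 alone, with a sum of 51.6, and Cidec, Lep and Retn were empty on all 8. Sums run over listed values. The sums of the granulosa, cumulus and theca markers and of the blood, stromal and endothelial markers were lower on every milrinone array than on any untreated array. Of the fatty acid genes described next, the tested Scd2 probe set was lower on milrinone 1 to 3 than on any untreated array and was empty on milrinone 4. Elovl6, Fads1, Fads2 and Scd1 had values on untreated arrays alone. Acly, Acaca, Fasn and Elovl5 had overlapping groups. The part of the marker cells in the differences of these genes was not tested. In such bulk samples, fewer cells of a type and less RNA per cell cannot be told apart.

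The fatty acid genes fell into 3 patterns. Elovl6, Fads1, Fads2 and Scd1 had values on untreated arrays alone, Scd2 was far lower on the milrinone arrays, and Acly, Acaca, Fasn and Elovl5 were listed on all arrays with overlapping groups. Of the 24 probe sets, 12 were listed on untreated arrays alone, 0 on milrinone arrays alone, 10 in both groups and 2 nowhere. By array, 9, 8, 9 and 7 of them were listed on milrinone 1 to 4, and 20, 12, 14 and 15 on untreated 1 to 4. Each milrinone array listed fewer than any untreated array. Over all probe sets that are not controls the ranges overlapped, with 41.2% to 43.1% listed on milrinone arrays and 41.9% to 51.6% on untreated arrays. Of the 12 fatty acid probe sets listed on untreated arrays alone, 4 were listed on untreated 1 only. The share of all probe sets listed on untreated arrays alone was not counted, and nothing is read from the 12.

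**Figure D1:**
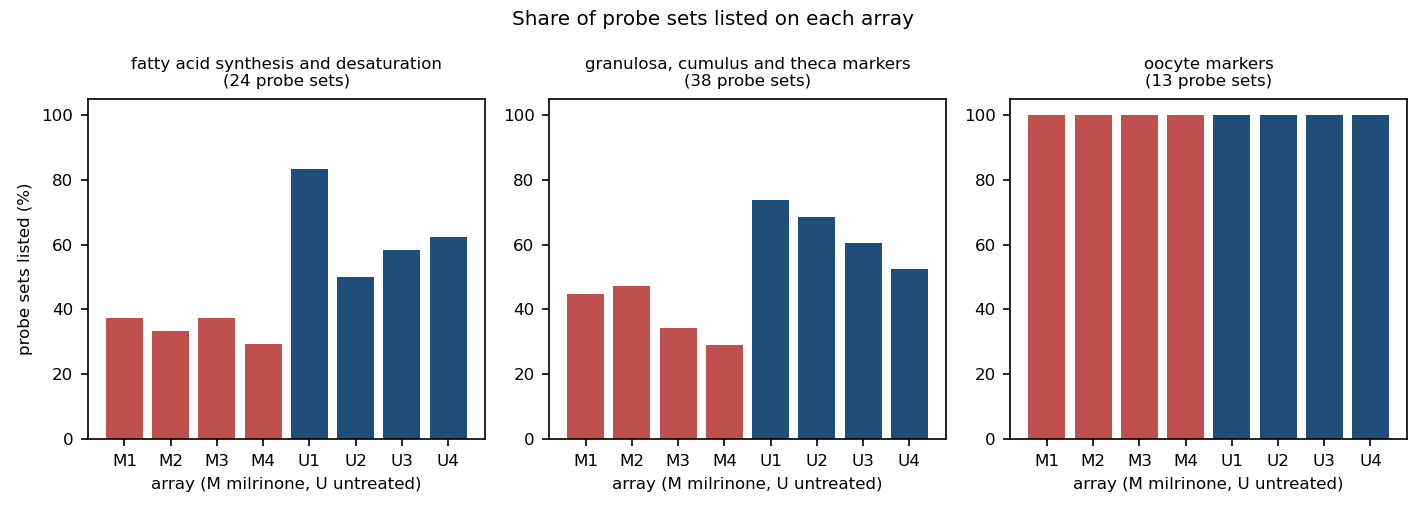
Share of probe sets listed (percent, vertical axis) on each array for the fatty acid genes, the granulosa, cumulus and theca markers and the oocyte markers; red bars are the 4 milrinone arrays (M1 to M4) and blue bars the 4 untreated arrays (U1 to U4). Fatty acid probe sets made up 29.2% to 37.5% on milrinone arrays, 83.3% on untreated 1 and between 50% and 62.5% on untreated 2 to 4, while all oocyte probe sets were listed everywhere.

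Among the genes with values in both groups, Scd2, a stearoyl-CoA desaturase, had the largest difference. Its probe set 1415822_at had 39.6, 73.4 and 29.2 on milrinone 1 to 3 and was empty on milrinone 4, against 4055, 713, 716 and 542 on untreated 1 to 4. The groups did not overlap, and the lowest untreated value was several times the highest milrinone value, with or without untreated 1. On the scale log2(intensity + 16), the difference, milrinone minus untreated, was -4.11 (SE 0.61, 95% interval -5.48 to -2.73), with the empty cell left out of the fit. Without untreated 1 it was -3.46 (SE 0.26, 95% interval -4.05 to -2.86). In the limma fit over all 16288 tested probe sets the adjusted p = 0.0574 with all arrays and adjusted p = 0.00146 without untreated 1. Scd2 was thus past the threshold of 0.05 without untreated 1 and not with it.

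The other probe sets of Scd2 carried few values. The probe set 1415824_at had 23.5 on milrinone 1 alone, against 82.6, 31.6 and 45.9 on untreated 1, 3 and 4. The probe set 1415823_at was listed on untreated 1 alone, at 132. Neither was tested, since a test needed 3 or more values per group, and the single milrinone value of 1415824_at lay below its untreated values. Scd1, the desaturase best known from liver and fat, was listed on 0 milrinone arrays. Its probe set 1415964_at had 520 on untreated 1 and 83.6 on untreated 3, and 1415965_at had 10.3 on untreated 3 alone. Scd1 thus had no value on untreated 2 or 4 either.

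Elovl6, the elongase that feeds the stearoyl-CoA desaturases, was listed on all 4 untreated arrays and on 0 milrinone arrays with both of its measured probe sets. The probe set 1417404_at had 2652, 301, 493 and 246 on untreated 1 to 4, and 1417403_at had 787, 138, 162 and 131. Both were highest on untreated 1. The other 3 untreated arrays were close together for 1417403_at and ran from 246 to 493 for 1417404_at. The third Elovl6 probe set, 1442656_at, was empty on all 8 arrays. Of the 24 probe sets, 3 had this pattern of all untreated and no milrinone arrays, against 0.471% of all 45037 probe sets that are not controls, a comparison from which nothing is read because the genes were picked in view of it. The reverse pattern, all milrinone and no untreated arrays, was seen for 0 of the 24, against 0.0333% of the 45037.

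Among the desaturases of polyunsaturated fatty acids, the third probe set of that pattern belonged to Fads1. Its probe set 1423680_at had 1219, 207, 293 and 124 on untreated 1 to 4 and was empty on the 4 milrinone arrays. The probe set 1440444_at of Fads1 had 71.6 and 67.3 on untreated 1 and 2 and no other value. Fads1 was highest on untreated 1, while the other untreated arrays still listed it. Fads2 was listed less often. Its probe set 1419031_at had 231 on untreated 1 and 90.6 on untreated 4, and 1449325_at and 1443838_x_at had 144 and 126 on untreated 1 alone. All 3 Fads2 probe sets were empty on the milrinone arrays, and without untreated 1 a single Fads2 value remained.

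**Figure D2:**
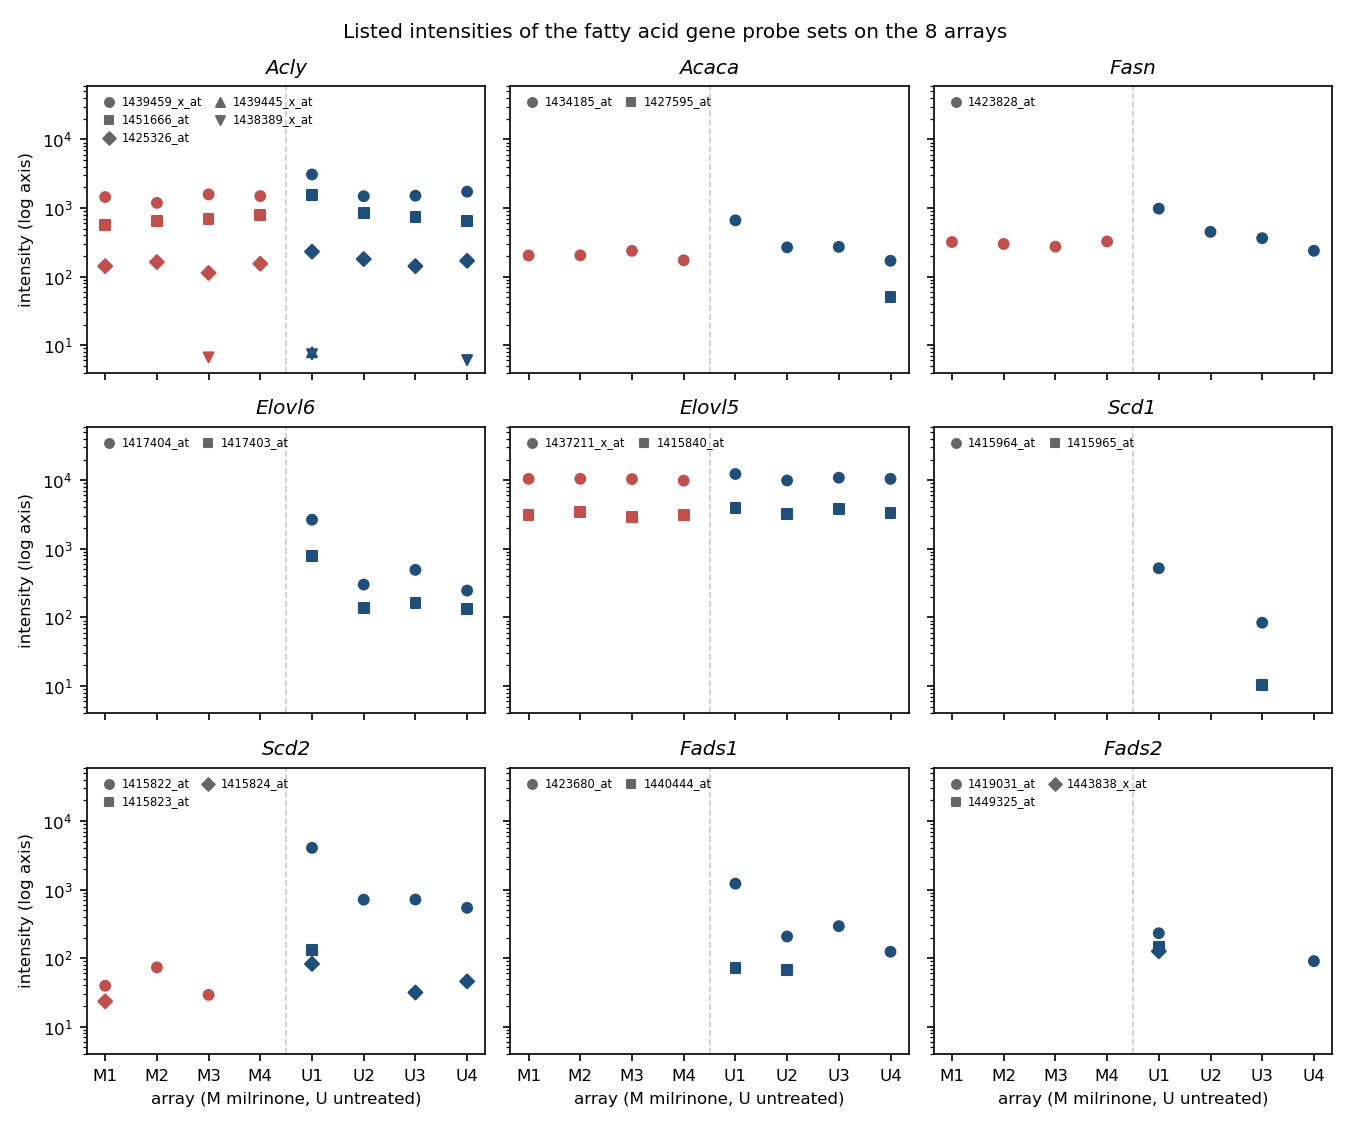
Listed intensity (log axis) of the 22 fatty acid gene probe sets with any value, 1 panel a gene, on milrinone arrays M1 to M4 (red) and untreated arrays U1 to U4 (blue); marker shapes are probe sets, and an empty cell has no marker. Elovl6, Scd1, Fads1 and Fads2 have blue markers alone, Scd2 has red markers at 23.5 to 73.4, and Elovl5 is level across all 8 arrays.

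The enzymes that make palmitate were listed on all arrays. Fasn, the synthase, had 319, 299, 273 and 325 on milrinone arrays, against 979, 449, 363 and 238 on untreated arrays. The groups overlapped, since untreated 4 was the lowest of all 8 and untreated 1 was over the others. The log2 difference was -0.52 (SE 0.34, 95% interval -1.28 to 0.23), and without untreated 1 it was -0.15 (95% interval -0.61 to 0.31). Acaca, the carboxylase, showed the same layout. Its probe set 1434185_at had 203, 204, 237 and 173 on milrinone arrays, against 660, 267, 271 and 170 on untreated arrays. The log2 difference of Acaca was -0.53 (SE 0.33, 95% interval -1.27 to 0.20), or -0.17 (95% interval -0.60 to 0.26) without untreated 1. Its other probe set, 1427595_at, was listed on untreated 4 alone, at 50.

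Acly, the citrate lyase, had 3 tested probe sets that gave like differences. The probe set 1439459_x_at had 1443, 1187, 1579 and 1490 on milrinone arrays, against 3081, 1484, 1511 and 1730 on untreated arrays. The probe set 1451666_at had 569, 641, 692 and 796 on milrinone arrays, against 1540, 845, 746 and 638 on untreated arrays. In both, untreated 1 was above the other untreated arrays, whose values overlapped those of milrinone. The third, 1425326_at, had 142, 163, 113 and 154 on milrinone arrays, against 231, 180, 142 and 170 on untreated arrays. The log2 differences of these 3 probe sets were -0.39, -0.40 and -0.30, each with an interval that includes 0, and without untreated 1 they were -0.15, -0.14 and -0.18. Of the remaining Acly probe sets, 1438389_x_at had 6.66 on milrinone 3, against 7.40 and 6.07 on untreated 1 and 4, 1439445_x_at had 7.88 on untreated 1 alone, and 1446315_at was empty on all 8.

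Elovl5, the elongase of polyunsaturated chains, was the gene of the set that varied least. Its probe set 1437211_x_at had 10446, 10478, 10375 and 9845 on milrinone arrays, against 12305, 9895, 10866 and 10448 on untreated arrays. Its probe set 1415840_at had 3124, 3472, 2938 and 3123 on milrinone arrays, against 3966, 3248, 3759 and 3332 on untreated arrays. Both were highest on untreated 1, and in both the groups overlapped. The first averaged 10286 ± 297 on milrinone arrays and 10879 ± 1031 on untreated arrays (SD, n = 4 each). The log2 differences of Elovl5 were -0.08 (95% interval -0.24 to 0.08) and -0.17 (95% interval -0.40 to 0.05), and both turned to 0.14 and 0.04 when the arrays were centred on ribosomal protein genes. Without untreated 1 they were -0.02 (95% interval -0.13 to 0.10) and -0.12 (95% interval -0.33 to 0.09).

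**Figure D3:**
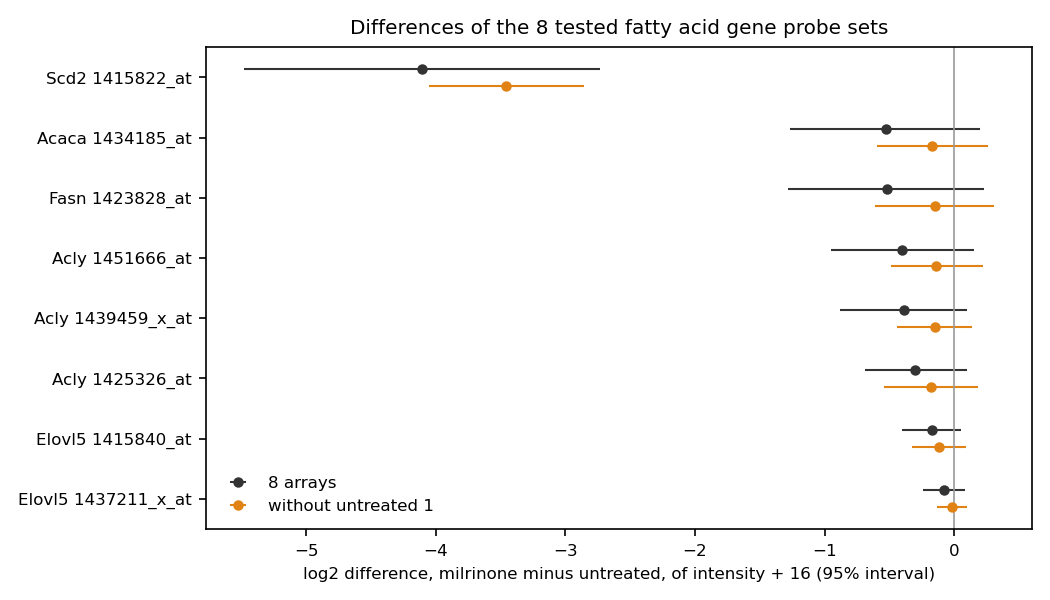
Log2 difference of intensity + 16, milrinone minus untreated (horizontal axis), with 95% intervals for the 8 tested fatty acid gene probe sets, over all 8 arrays (black) and without untreated 1 (orange). Scd2 lies at -4.11 and -3.46, and the other 7 probe sets lie between -0.53 and -0.02 with intervals that include 0.

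Over these genes, 8 of the 24 probe sets could be tested, and they stand for 5 of the 9 genes. With all arrays, 0 of the 8 passed in the limma fit at an adjusted p under 0.05, against 0.117% of all 16288 tested probe sets (19 probe sets), and 1 of the 8, that of Scd2, had an unadjusted p under 0.05, beside 1567 of the 16288. Without untreated 1, 1 of the 8 passed, Scd2, against 0.424% of all tested probe sets. All 8 differences lay below 0, as did 38.0% of all tested probe sets, and without untreated 1 all 8 still did, against 44.7%. The median log2 difference of the 8 was -0.39, beside 0.06 over all tested probe sets. Without untreated 1 these medians were -0.15 and 0.03. In 1 of the 8, that of Scd2, every listed milrinone value lay below every untreated value, with and without untreated 1, beside 2.74% and 3.99% of all tested probe sets. Probe sets that were empty in milrinone could not enter these counts.

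The untreated arrays also differed among themselves in these genes. Of the 24 probe sets, 11 were listed on all 4 untreated arrays, and in 11 of these untreated 1 was the highest, beside 23.8% of all probe sets so listed. Another 4 were listed on untreated 1 alone. The share of all probe sets so listed was not counted, and untreated 1 listed the most probe sets of any array, so nothing is read from these 4. The ratio of untreated 1 to the median of untreated 2 to 4 was 8.82 and 5.68 for the Elovl6 probe sets, 5.89 for Fads1 and 5.68 for Scd2. It was 2.70 for Fasn, 2.47 for Acaca, 1.36 to 2.07 for the 3 Acly probe sets and 1.18 and 1.19 for Elovl5. Of the 11 probe sets with a ratio, the 4 largest were the 2 of Elovl6 and those of Fads1 and Scd2, genes that were empty or far lower on the milrinone arrays. The genes were picked in view of that comparison, which includes untreated 1, and nothing is read from this. Over all 15931 probe sets listed on the 4 untreated arrays the median ratio was 0.90, and the ratios between the 5% lowest and 5% highest ran from 0.59 to 2.68. The summed intensities of the granulosa, cumulus and theca markers and of the blood, stromal and endothelial markers were also highest on untreated 1, as given above, and their part in these ratios was not tested. Among untreated 2 to 4, Fads1, both Elovl6 probe sets and the tested probe sets of Scd2 and Acaca were highest on untreated 3 and lowest on untreated 4. Fasn and the 3 Acly probe sets were highest on untreated 2 or 4, and both Elovl5 probe sets were lowest on untreated 2. On untreated 1 to 4 the blood, stromal and endothelial marker sums were 10027, 1549, 2870 and 1434. The granulosa, cumulus and theca sums were 85902, 19775, 22440 and 22859. Nothing is read from the order of so few arrays.

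**Figure D4:**
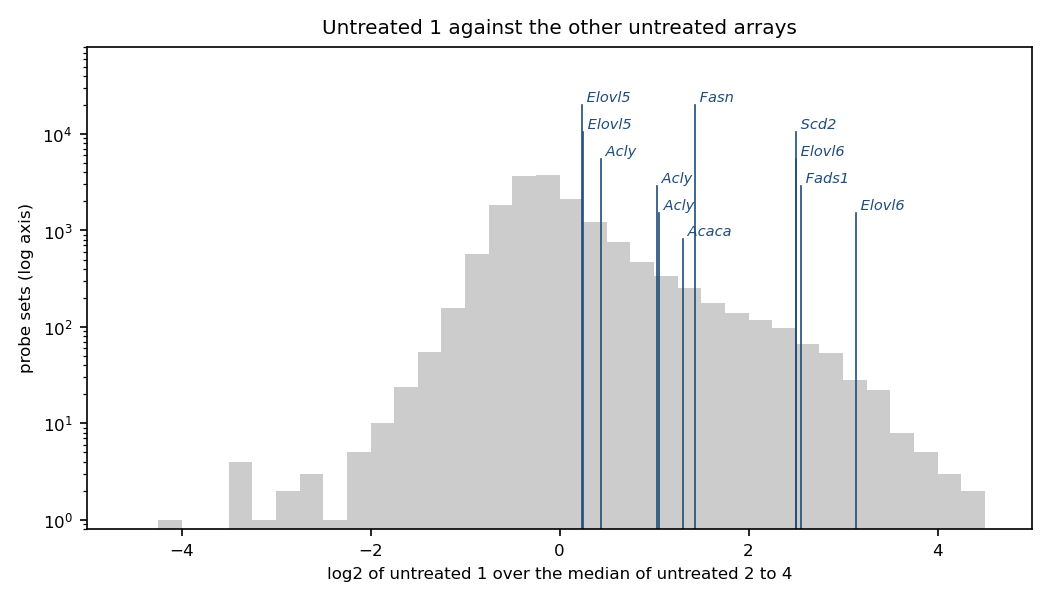
Histogram of the log2 ratio of untreated 1 to the median of untreated 2 to 4 (horizontal axis) for the 15931 probe sets listed on all 4 untreated arrays (grey, number of probe sets on a log axis), with the 11 fatty acid gene probe sets as labelled lines. Elovl5 has the smallest ratios of these genes, 1.18 and 1.19, and Elovl6, Fads1 and Scd2 lie in the upper tail, with ratios from 5.68 to 8.82.

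Genes that varied most like the fatty acid genes over the 8 arrays were searched for Fasn, Acaca, Acly and Elovl5, which had a probe set listed on all of them. For Fasn they were Pebp1 (r = 0.989) and Chrac1 (r = 0.987), and for Acaca Extl2 (r = 0.993) and Fscn1 (r = 0.991). For Acly they were Nr5a2 (r = 0.995), a nuclear receptor gene of the granulosa marker list, and Rbm47 (r = 0.972). For Elovl5 they were Dbi (r = 0.983) and Sh3bgrl (r = 0.977). The 4 probe sets of Nr5a2 together gave 13 values on milrinone and 15 on untreated arrays, and nothing on cell types is read from its likeness to Acly. All 4 fatty acid probe sets used here were highest on untreated 1. The correlations are the highest of 13306 probe sets, and without untreated 1 they ran from 0.92 for Sh3bgrl to 0.98 for Extl2 over 7 arrays.

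Other genes of fatty acid synthesis, activation and storage lay on both sides of 0. Of 59 such genes 55 were on the array and 45 were tested, with 26 higher and 19 lower in milrinone and a median log2 difference of 0.05, beside 5939 higher and 3515 lower and a median of 0.07 over all 9454 tested genes. Without untreated 1 there were again 26 higher and 19 lower, with a median of 0.03, beside 5359 and 4095 with a median of 0.03 over all tested genes. By limma 0 passed, with 10 of the 45 at an unadjusted p under 0.05, beside 931 of the 9454. Without untreated 1 these were 7 of the 45 and 792 of the 9454. The 4 with the smallest p were all lower in value. Gpam, the mitochondrial acyltransferase that starts glycerolipid synthesis, had 161, 143, 85.5 and 199 on milrinone arrays, against 5006, 858, 1017 and 371 on untreated arrays. Its groups did not overlap, with a log2 difference of -2.87 (SE 0.62, limma adjusted p = 0.230), and it passed without untreated 1, at -2.16 (SE 0.36, limma adjusted p = 0.0439). Its other probe set was empty on all 8 arrays. Mid1ip1, a partner of acetyl-CoA carboxylase, had 78.5, 133, 98.2 and 97.3 on milrinone arrays, against 2152, 449, 470 and 198 on untreated arrays. Its difference was -2.29 (limma adjusted p = 0.317), or -1.65 without untreated 1 (limma adjusted p = 0.0586). Cyb5r3, the reductase that passes electrons through cytochrome b5 to desaturases, differed by -0.67, with -0.77 and -0.40 for its other tested probe sets. Without untreated 1 these were -0.54, -0.77 and -0.50, and a further Cyb5r3 probe set was listed on 2 milrinone and 0 untreated arrays. Hacd3, the dehydratase of the elongation cycle, differed by -0.80, with -0.88 and -0.34 for its other probe sets, and its milrinone and untreated values overlapped. Without untreated 1 these were -0.54, -0.53 and -0.32. Gpam was the 1 gene of this list called without untreated 1, beside 1 called higher and 54 called lower of all 9454 tested genes.

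Genes of fatty acid oxidation, the opposite pathway, were lower in value in 16 of 22 cases with all arrays and in 13 of 22 without untreated 1, and none passed the test with all arrays. Of 33 genes 31 were on the array and 22 were tested, with 6 higher and 16 lower, or 9 higher and 13 lower without untreated 1. Beside these, 3515 of all 9454 tested genes were lower, or 4095 without untreated 1. By limma 0 passed, and 3 of the 22 had an unadjusted p under 0.05, with or without untreated 1, beside 931 and 792 of the 9454 tested genes. Their median log2 difference was -0.25, or -0.11 without untreated 1, beside 0.07 and 0.03 over all tested genes. Hadh, the hydroxyacyl-CoA dehydrogenase of mitochondria, had 589, 647, 484 and 469 on milrinone arrays, against 9130, 1270, 2093 and 1060 on untreated arrays. Its groups did not overlap, and its difference was -2.03 (limma adjusted p = 0.416), or -1.36 without untreated 1 (limma adjusted p = 0.0488). Hadh was the 1 gene of the list called without untreated 1, beside 1 called higher and 54 called lower of all 9454 tested genes. Of the other Hadh probe sets, 1 was listed on 0 milrinone and all 4 untreated arrays, and 1 on 3 milrinone and 2 untreated arrays. Cpt1a, which carries fatty acids into mitochondria, differed by -0.95, Etfdh, which hands their electrons to ubiquinone, by -1.28, and Eci2, an enoyl-CoA isomerase, by -0.97. Without untreated 1 these were -0.64, -0.66 and -0.44, and none of the 3 passed in either fit. The other probe sets of Cpt1a were listed on 0 and 1 milrinone arrays, against 2 and 1 untreated arrays, and that of Etfdh was empty on all 8. The granulosa, cumulus and theca sums and the blood, stromal and endothelial sums given above were lower on every milrinone array than on any untreated array. The values given for Gpam, Mid1ip1 and Hadh were too, as were those of the brightest tested probe sets of Cyb5r3 and Etfdh. That of Cpt1a was empty on milrinone 4 and lower on the other milrinone arrays, and those of Hacd3 and Eci2 overlapped. The part of these cells was not tested. Within the untreated arrays Gpam, Mid1ip1, Hadh and Cyb5r3 had the order of the blood, stromal and endothelial sums, and Hacd3, Cpt1a, Etfdh and Eci2 did not. The granulosa, cumulus and theca sums did not have that order either. Gja1 of the granulosa markers had that order and Grem1 did not, and nothing is read from it.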

How the data were processed

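The values are the intensity of each probe set on a linear scale as deposited by the authors, 1 value per array; how they were summarised and scaled, and why cells were left empty, is not given in the sources used here. The deposited scaling was kept, and empty cells stayed empty. Gene symbols came from the platform annotation and, for 34741 of 34945 probe sets with 1 symbol, were updated through Entrez identifiers to RefSeq; promoter sequences are RefSeq's for GRCm38. Intensities were analysed as log2(intensity + 16), which understates changes of dim probe sets. The 16288 probe sets that are not controls with 3 or more listed values per group were tested in limma 3.58.1 (R 4.3.3), using lmFit and two-sided trended eBayes, and p-values were adjusted over all of them by Benjamini-Hochberg, with a threshold of 0.05. The standard errors of the log2 differences had a median of 0.17, and the number of arrays limits the precision. In lists, each gene was represented by its brightest tested probe set; no set test was run. On data simulated for this comparison over 16288 probe sets of which 200 had a known change, limma found 62% of the 2-fold changes, 90% of the 4-fold ones and 100% of those of 8-fold or 16-fold, with 8 false calls among 184. The simulated noise was normal and independent between arrays and probe sets, and no array stood apart as untreated 1 did. These shares therefore do not give the power in the measured data. Plots were drawn with Python 3.11.15 and matplotlib 3.10.9.

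The 9 genes, the lists and the tests were chosen with earlier results of these data known. The genes named were all 9 with every probe set, up to 4 genes of each other list with the smallest p and any called, and the 2 genes most correlated with the brightest probe set of each of the 9 that was listed on all arrays. Gpam and Hadh, called without untreated 1, were already among these. The alternatives tried were another pseudocount (1 or 64), quantile normalization, centring on the median or on ribosomal proteins, other rules on listing, no trend, array weights, the replicate number as a block, and leaving out each array in turn.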

Additional observations from a re-analysis of the deposited data

Results flagged for a closer look

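In 33 groups of 4 arrays, formed by the fatty acid genes and the other named genes on the log2 scale, 1 array lay far from the other 3 in 7 groups. For independent groups chance picks out about 1 in 20, or 1.6 here. These groups share the same arrays and some genes were named for their small p, so the 7 cannot be set against that number. The number is the array's gap to its nearest neighbour as a share of the range of the group. Untreated 1 was highest for Scd2 (0.864), for the Elovl6 probe set 1417403_at (0.889), for Cpt1a (0.964), for Etfdh (0.889) and for Eci2 (0.840). Milrinone 4 was lowest for the Elovl5 probe set 1437211_x_at (0.841) and highest for Hacd3 (0.834).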

How the results depend on the processing

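The count of 19 changed probe sets became 52 with centring on ribosomal proteins, 12 for probe sets listed on all 8 arrays and 106 with array weights, and ran from 9 without milrinone 3 to 69 without untreated 1 when 1 array was left out. For the fatty acid genes the count of 0 became 1 with a pseudocount of 1, with centring on ribosomal proteins, with array weights and without untreated 1, each time Scd2, and ran from 0 to 1 over the arrays left out. Scd2 stayed below 0 in all 17 alternatives that gave it a value, from -4.52 to -3.34, with limma adjusted p from 0.00052 to 0.297, and was called in 4. In the other synthesis list the count of 0 became 2 with centring on ribosomal proteins (Gpam and Mid1ip1) and 3 with array weights (these and Cyb5r3), and ran from 0 to 1 over the arrays left out. In the oxidation list it became 1 with array weights (Hadh) and ran from 0 to 1. The causes were not tested. The median of all tested probe sets, 0.06, became 0.28 with centring on ribosomal proteins and -0.13 with quantile normalization; with centring on ribosomal proteins both Elovl5 probe sets, at 0.14 and 0.04, were still below that median. With quantile normalization an Acly probe set had -0.54 and an Elovl5 probe set -0.30. With the replicate number as a block 13 probe sets were called and 0 of the fatty acid genes or lists. Same-numbered arrays did not deviate together, with correlations of 0.03, -0.20, -0.02 and -0.27 for numbers 1 to 4. Unlike-numbered arrays had -0.18 to 0.28. The numbers are used here as names of the arrays. These correlations cannot show whether same-numbered samples were collected together.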
